A study of Mus musculus with 12 samples.

Results

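The effect of dietary iron on the liver transcriptome was measured in the 6 whole-transcript (Trad-KAPA) libraries of the series, 3 from mice on a control diet and 3 from mice on an iron-loaded diet, out of 12 libraries in all. Every gene that passed an expression filter in these 6 libraries was included, which gave 13151 of the 27022 genes in the deposited table. The filter asked for a minimum level in at least 3 of the 6 libraries and did not use the test result. A gene could therefore pass through its level in a single diet, as Slc7a11 and Trem2 did with iron and Ugt2b37 and Mup18 with the control diet.

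The liver is the main store of iron and the source of hepcidin, the peptide hormone encoded by Hamp that blocks the iron exporter ferroportin (Slc40a1) and so limits iron uptake and release. Endothelial cells of the sinusoids sense iron and release BMP6, which acts on BMP receptors of hepatocytes, and phosphorylated SMAD proteins then drive Hamp together with Id1, Smad7 and Atoh8. Free iron also promotes oxidation of lipids and proteins, and Kupffer cells, the resident macrophages of the liver, take up iron from red cells and from dying hepatocytes.

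All mice were female SJL/J mice, an inbred strain, and received a control diet with 50 ppm iron from 3 weeks of age. One cage was moved to the same base diet with 2% carbonyl iron at 6 weeks, and livers were taken at 11 weeks after a fast of some hours in a late-morning to midday window, following perfusion to flush out blood. Each diet was 1 cage of 4 mice, of which 3 were sequenced. Effects of diet and of cage therefore cannot be told apart, and p-values measure only the spread between mice within these cages. The study used the diets as a contrast between transcriptomes on which to compare the Trad-KAPA kit, which fragments whole mRNA, with the 3'-LEXO kit, which reads the 3' end of each mRNA.

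The Trad-KAPA libraries held 13834682 to 16553616 counts, and the spread among mice was not even. Iron-loaded libraries 2 and 3 differed at an unadjusted p under 0.05 in 9.52% of 11526 genes with at least 50 counts over both libraries (chi-square test of each gene's counts), against 32.3% to 38.4% among control pairs and 51.9% and 51.1% for iron-loaded library 1 against 2 and 3. The median chi-square of that pair was 1.32 times counting noise, against 3.53 to 4.94 among controls, and the 3'-LEXO libraries of the same mice were also closest, at 2.91 times. The pair thus differed by slightly more than counting noise, and whether the RNAs came from 2 separate mice was not tested. They were kept as 2 replicates, and each list is also given with their counts summed as 1 library, called the summed pair.

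**Figure D1:**
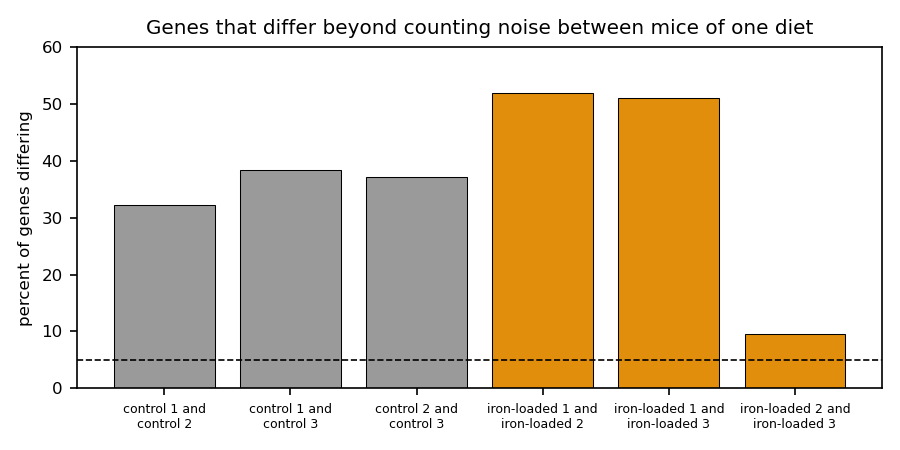
Bars give the percent of genes whose counts differ at an unadjusted p under 0.05 between libraries of one diet, for the 3 control pairs (grey) and the 3 iron-loaded pairs (orange), and the dashed line marks the 5% that counting noise alone gives. Iron-loaded libraries 2 and 3 stand at 9.52%, below the 32.3% to 38.4% of the control pairs and the 51.1% and 51.9% of the pairs with iron-loaded library 1.

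Across the genes, 1154 (8.77%) were called higher and 1101 (8.37%) lower with iron at an edgeR adjusted p under 0.05, and 709 of these changed by more than 1 on the log2 scale. With the summed pair, 625 (4.64%) were higher and 522 (3.88%) lower, and without control 2, the library whose removal left the fewest calls, 414 (3.09%) were higher and 427 (3.18%) lower. The median log2 fold change of all genes was 0.02. Levels of genes are given for libraries 1, 2 and 3 of each diet as CPM, a gene's count relative to the TMM-scaled total of its library, and changes as log2 fold changes ± SE of iron-loaded over control (n = 3 per diet). A gene said to rise or fall kept its call in 13 alternative fits unless the exceptions are named, with the range of the log2 fold change in those fits in parentheses. A list is described by the median log2 fold change of their tested members and by the medians of libraries 1, 2 and 3 on the log2(CPM + 0.5) scale relative to the control mean. Counts of called members are to be read beside the shares of all genes called in the same fit, given above. The lists were written with earlier results of these data known, so that a share above that of all genes can partly reflect the choice of members. In bulk liver, fewer cells of a type and less RNA per cell cannot be told apart.

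**Figure D2:**
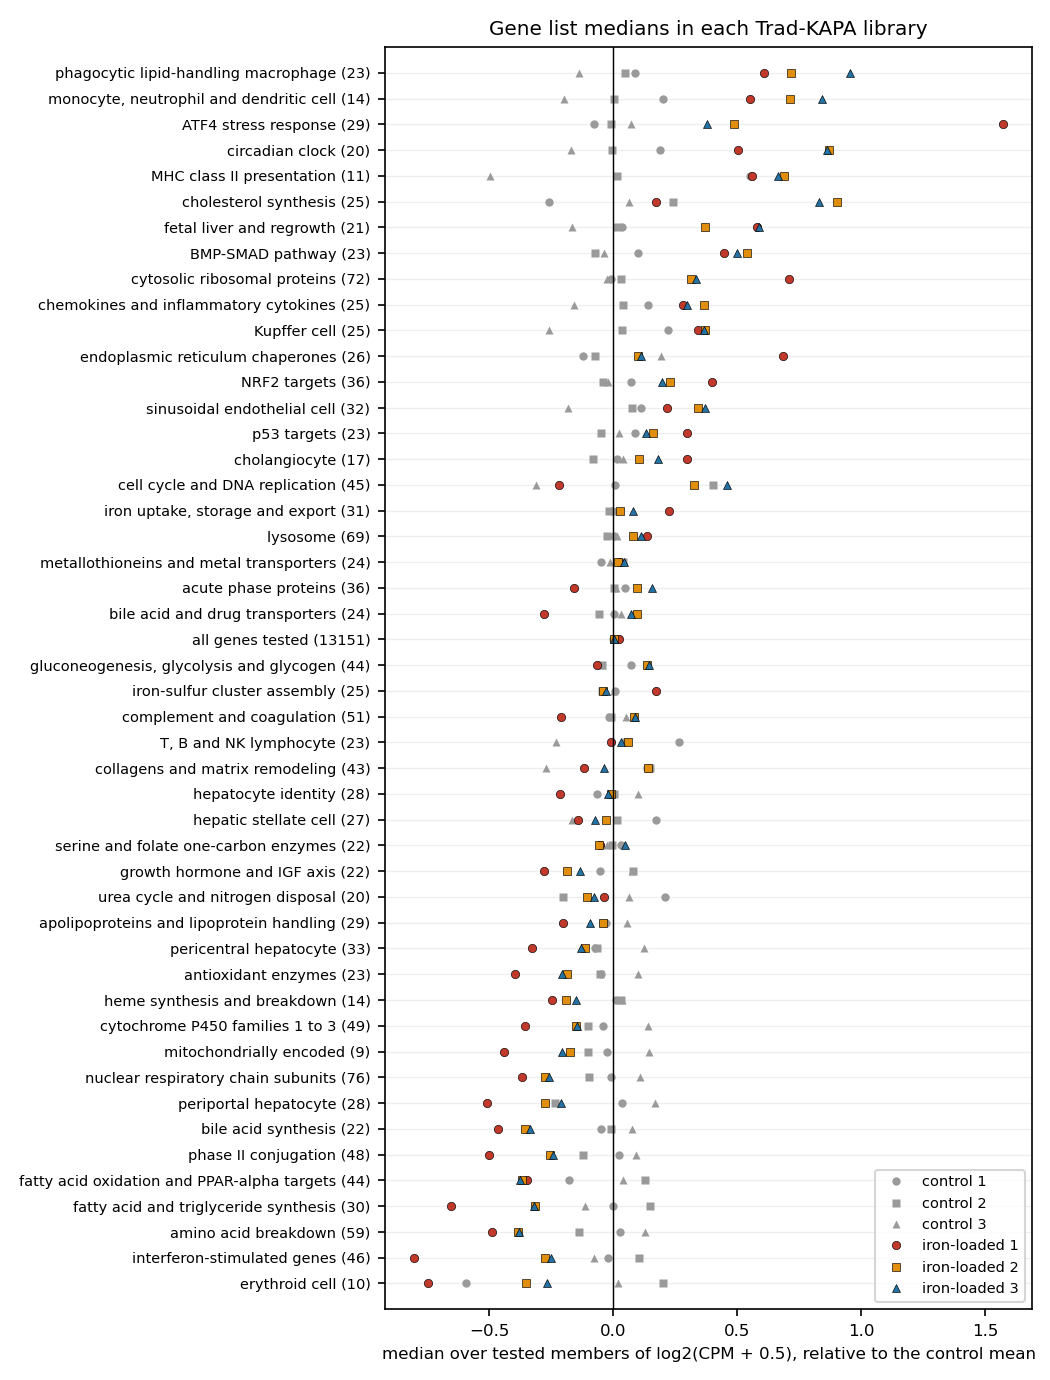
Each row is a gene list with its number of tested members, and each point is the median of log2(CPM + 0.5) over these members in 1 library relative to the control mean, in grey for controls and in color for iron-loaded libraries 1 to 3. Macrophage, myeloid and clock lists stand to the right in all 3 iron-loaded libraries and amino acid breakdown to the left, and the ATF4 list reaches 1.57 in iron-loaded library 1 against 0.49 and 0.38 in libraries 2 and 3. The major urinary proteins and the single tested member of the pancreas, adipose and muscle list are not drawn.

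Ligands, signal carriers and target genes of the BMP-SMAD pathway rose with iron. Bmp6 (ENSMUSG00000039004, chr13:38345107-38500302, GRCm38 as all positions here), the ligand made by sinusoidal endothelial cells, stood at 3.75, 3.59 and 3.01 CPM in the controls and 16.8, 17.3 and 21.8 CPM with iron, a 5.37-fold rise with no overlap between the diets (log2 fold change 2.42 ± 0.17, edgeR adjusted p = 0.000505). Smad9 (ENSMUSG00000027796, chr3:54755582-54801257), a receptor-activated SMAD that is itself a BMP target, showed the largest change of the pathway, from 3.505, 1.76 and 2.01 CPM to 46.6, 41.3 and 41.8 CPM (17.5-fold, 4.13 ± 0.22, edgeR adjusted p = 0.000260). Its levels with iron were nearly the same in all 3 mice and more than 10 times those of any control. Bmp2, a related ligand, rose more modestly, from 27.2, 24.6 and 24.5 CPM to 41.9, 51.8 and 51.5 CPM (0.93 ± 0.12).

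Several target genes of the pathway rose too. Id4, a helix-loop-helix inhibitor, rose by 2.23 ± 0.28 on the log2 scale, and Atoh8, a transcription factor that acts on Hamp, by 1.73 ± 0.29 from 17.6, 6.90 and 9.81 CPM to 42.8, 33.4 and 38.2 CPM. Smad7, the inhibitory SMAD of the pathway, was at 23.6, 11.6 and 14.2 CPM in the controls and 31.97, 75.3 and 74.9 CPM with iron (1.88 ± 0.36). Id1, a classical BMP target, was at 14.2, 5.01 and 3.32 CPM in the controls and 25.1, 25.7 and 25.1 CPM with iron (1.73 ± 0.43, edgeR adjusted p = 0.0295), and control 1 stood above the other controls for both genes. Of 23 tested of 24 listed members, 11 were called higher and 1 lower, against 6 and 1 with the summed pair and 5 and 2 without control 2. The list median was 0.50, with 0.45, 0.54 and 0.50 in the 3 iron-loaded libraries, so that no single mouse carried it. Smad7 lost its call without control 2 or 3 (1.68 to 1.78) and Id1 without control 2 or 3 or iron-loaded 2 or 3 or with the summed pair (1.39 to 1.74). Without control 1 the log2 fold change of Id1 was 2.60.

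Hepcidin itself did not pass the test although the diets did not overlap. Hamp (ENSMUSG00000050440, chr7:30942368-30944032) stood at 515, 44.5 and 88.9 CPM in the controls and at 1245, 1034 and 1057 CPM with iron (2.36 ± 0.77, edgeR adjusted p = 0.0667). The iron-loaded mice were close to each other, and control 1 was far above the other controls. Hamp was called higher without control 1 (log2 fold change 4.06), under the replicate block (3.16) and with no expression filter (2.36). Hamp2, the second hepcidin gene of the mouse, moved the other way, from 725, 293 and 482 CPM to 87.4, 167 and 174 CPM (-1.81 ± 0.36, edgeR adjusted p = 0.0148). Hamp2 lost its call without control 3 (-1.84). Of the 50-base stretches of Hamp and Hamp2 transcripts, 16.6% and 11.2% also occur in another gene, so that some reads of either gene could not be placed uniquely.

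Promoter stretches of risen genes are given with the results of 4 lists, from RefSeq (GRCm38.p6), each written 5′ to 3′ on the strand of its gene and ending at or before the last base ahead of the transcription start. A GC-rich SMAD element with the letters GGCGCC, the same on both strands, was found in the 250 bases upstream of 4 of the 8 matched genes among the 11 called higher, against 9.59% of all 32851 promoters and 10.8% of their 27025 genes. It also occurs in 4 of 7 matched members that were not called, Hamp among them. Smad9 and Id4 are shown because they had the largest rises among target genes of the list, with the element in capitals, Smad9 at chr3:54755332-54755581 (plus strand) and Id4 at chr13:48260866-48261115 (plus strand).
Smad9: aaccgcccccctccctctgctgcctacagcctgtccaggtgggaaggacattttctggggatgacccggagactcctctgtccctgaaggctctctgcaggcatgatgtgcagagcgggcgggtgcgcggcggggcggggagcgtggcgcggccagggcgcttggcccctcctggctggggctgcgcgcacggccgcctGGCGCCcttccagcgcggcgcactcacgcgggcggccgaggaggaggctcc
Id4: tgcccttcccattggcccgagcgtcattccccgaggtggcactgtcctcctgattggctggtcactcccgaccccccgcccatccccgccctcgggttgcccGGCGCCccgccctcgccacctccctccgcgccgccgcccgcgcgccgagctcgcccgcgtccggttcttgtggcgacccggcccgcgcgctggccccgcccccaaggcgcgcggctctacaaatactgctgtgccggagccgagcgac

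Genes of iron transport and storage changed less than the BMP-SMAD genes. Slc40a1, the ferroportin exporter, rose from 259, 245 and 254 CPM to 401, 501 and 496 CPM (0.89 ± 0.13, edgeR adjusted p = 0.00541). Cp, the plasma ferroxidase ceruloplasmin, rose from 1375, 1414 and 1511 CPM to 2537, 2773 and 2810.1 CPM (0.92 ± 0.13), and Lcn2, a siderophore-binding protein, from 54.6, 23.3 and 42.9 CPM to 145, 108 and 109.7 CPM (1.58 ± 0.28). These 3 genes were separate between the diets in every library. Hpx, the heme scavenger hemopexin, rose from 4655, 4123 and 3294 CPM to 6395, 6133 and 6107 CPM (0.63 ± 0.17). Bdh2, which takes part in siderophore synthesis, and Aco1, the cytosolic aconitase that becomes iron regulatory protein 1, fell (-1.57 ± 0.45 and -0.59 ± 0.16).

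The transcripts of the transferrin receptor and the ferritins, which carry iron-responsive elements, were not called. Tfrc, the transferrin receptor, stood at 15.5, 18.9 and 15.1 CPM in the controls and 26.7, 15.6 and 18.2 CPM with iron (0.29 ± 0.20, edgeR adjusted p = 0.346). Fth1, the ferritin heavy chain, stood at 1173, 1116 and 1415 CPM in the controls and 1227, 967 and 965 CPM with iron (-0.23 ± 0.16), and Ftl1, the light chain, at 10.8, 5.55 and 5.64 CPM in the controls and 8.44, 5.78 and 7.596 CPM with iron (-0.02 ± 0.28). For both ferritins the diets overlapped. Of the Ftl1 stretches of 50 bases, 50.9% occur in other genes, so that the Ftl1 level is uncertain. For Ftl1 the study reported no difference with Trad-KAPA, but a rise with iron by 3'-LEXO and by RT-qPCR on the same RNA. Among 31 tested of 34 listed members, 4 passed the test as higher and 2 as lower, 3 and 0 with the summed pair, and 3 and 0 without control 2, with a median of 0.11. Hpx lost its call without control 2 or 3 or iron-loaded 2 or 3 or with the summed pair (0.50 to 0.64), Bdh2 without control 1, 2 or 3 or iron-loaded 2 or with the summed pair (-1.74 to -1.47), and Aco1 without control 1, 2 or 3 or iron-loaded 2 or 3 or with the summed pair (-0.68 to -0.53).

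Heme genes changed in both directions. Hmox1, the enzyme that opens the heme ring and frees its iron, rose from 40.5, 33.8 and 25.3 CPM to 112, 74.2 and 82.8 CPM (1.43 ± 0.21, edgeR adjusted p = 0.00579). Alas1, the first and rate-limiting enzyme of heme synthesis in liver, rose from 112, 114 and 55.6 CPM to 194, 279 and 274 CPM (1.41 ± 0.27). Later enzymes of the same route fell, namely Ppox from 40.1, 41.6 and 37.2 CPM to 15.95, 21.6 and 21.2 CPM (-1.02 ± 0.13) and Uros from 17.6, 17.9 and 18.8 CPM to 10.4, 8.74 and 8.38 CPM (-0.98 ± 0.13). Calls over 14 tested members numbered 4 higher and 4 lower, 3 and 2 with the summed pair, and 2 and 2 without control 2. Iron-sulfur cluster assembly, which uses iron in the mitochondria and the cytosol, was level, with 0 of 25 tested members called higher, 1 lower, and a list median of 0.01.

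**Figure D3:**
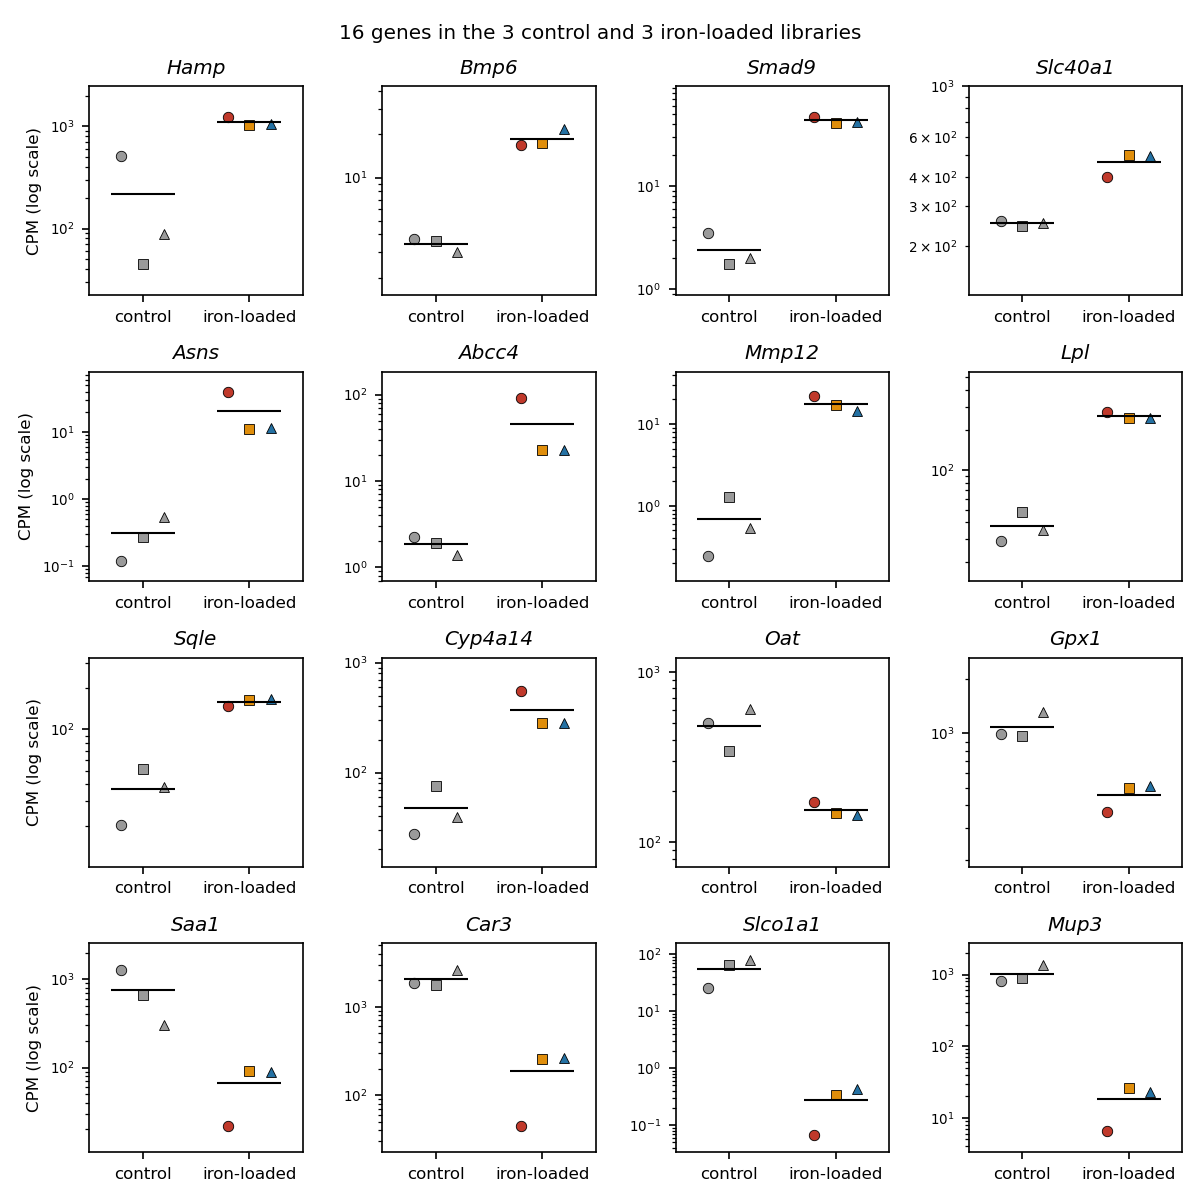
CPM of 16 genes on log axes in the control (grey) and iron-loaded (color) libraries, with circles, squares and triangles for libraries 1, 2 and 3 of a diet and a line at each mean. Iron-loaded library 1 (red) stands apart from 2 and 3 for Asns, Abcc4, Car3 and Mup3, while for Smad9, Bmp6 and Lpl the 3 iron-loaded libraries stand close together above all controls.

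The stress program of the transcription factor ATF4, which is induced when amino acids are short, among other conditions, was among the strongest changes. Asns (ENSMUSG00000029752, chr6:7675169-7693254), asparagine synthetase, was nearly silent in controls at 0.121, 0.271 and 0.541 CPM and reached 39.6, 11.2 and 11.4 CPM with iron, the largest rise of any gene named here (6.09 ± 0.75, edgeR adjusted p = 0.00363). Its log2 fold change was 5.22 without iron-loaded 1 and 6.70 without control 3. Psat1, of serine synthesis, rose from 0.544, 0.541 and 0.850 CPM to 5.50, 2.68 and 2.70 CPM (5.65-fold), and Mthfd1l, a mitochondrial folate enzyme, from 1.87, 1.89 and 1.47 CPM to 6.37, 7.501 and 6.46 CPM (1.94 ± 0.20). Slc7a11, the cystine importer, was at 1, 1 and 0 counts in the controls and 14, 17 and 20 counts with iron and was called higher, and with so few control counts no fold is given.

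Several members were far higher in iron-loaded mouse 1 than in mice 2 and 3. Trib3, a pseudokinase induced by ATF4, stood at 36.7, 15.3 and 19.7 CPM in the controls and at 489, 68.6 and 65.7 CPM with iron (3.12 ± 0.80). Atf3, a stress transcription factor, stood at 0.604, 0.880 and 0.772 CPM in the controls and 15.5, 3.03 and 2.48 CPM with iron (3.22 ± 0.78), and Nupr1, a chromatin-bound stress protein, at 0.181, 0.271 and 0.386 CPM in the controls and 10.9, 1.17 and 1.70 CPM with iron (4.04 ± 1.01). In all of these genes mice 2 and 3 were still above every control. In all, 13 of 29 tested of 32 listed members were higher and 1 lower by the test, compared with 11 and 0 for the summed pair and 5 and 0 without control 2. The list median was 0.90, with 1.57, 0.49 and 0.38 in the 3 libraries. Shmt2, the mitochondrial serine hydroxymethyltransferase, fell (-0.57 ± 0.15). Trib3, Atf3 and Nupr1 lost their calls without control 1, 2 or 3 (2.87 to 3.57, 3.08 to 3.35 and 3.79 to 4.31) and Shmt2 without control 1, 2 or 3 or iron-loaded 2 or 3 or with the summed pair (-0.68 to -0.54). Without iron-loaded 1 the log2 fold changes of Trib3, Atf3 and Nupr1 were 1.48, 1.88 and 2.37, and Nupr1 did not reach the filter at the drawn depth. Slc7a11 did not reach the filter of at least 1 CPM in 3 libraries and kept its call in the other 12 fits.

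The amino acid response element, searched as TGATGNAA on both strands, was found upstream of 4 of the 11 matched genes among the 13 called higher, namely Asns, Atf3, Nupr1 and Slc7a11, against 3.45% of all promoters and 3.91% of genes. It was also found in 3 of 13 matched members that were not called. The stretches of Asns, Slc7a11 and Atf3 are shown with the element in capitals because they are 3 of the 4 risen members that carry it, Asns at chr6:7693225-7693459 (minus strand), Slc7a11 at chr3:50443614-50443863 (minus strand) and Atf3 at chr1:191183334-191183583 (minus strand). The match in Asns begins 23 bases before the RefSeq start, and its stretch ends after the element. In GENCODE M21, the source of the gene positions given here, 30 bases of that stretch, the element among them, lie in an exon of Asns. A match describes the letters and not a bound site.
Asns: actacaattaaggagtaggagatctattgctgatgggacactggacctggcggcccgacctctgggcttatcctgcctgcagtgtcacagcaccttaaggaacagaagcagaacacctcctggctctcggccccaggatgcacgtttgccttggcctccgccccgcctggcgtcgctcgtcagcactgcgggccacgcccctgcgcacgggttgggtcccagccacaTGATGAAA
Slc7a11: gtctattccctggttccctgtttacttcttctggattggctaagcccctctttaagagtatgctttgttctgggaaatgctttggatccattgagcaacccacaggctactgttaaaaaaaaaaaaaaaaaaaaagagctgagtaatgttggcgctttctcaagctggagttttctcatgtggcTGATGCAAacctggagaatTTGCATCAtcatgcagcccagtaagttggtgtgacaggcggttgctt
Atf3: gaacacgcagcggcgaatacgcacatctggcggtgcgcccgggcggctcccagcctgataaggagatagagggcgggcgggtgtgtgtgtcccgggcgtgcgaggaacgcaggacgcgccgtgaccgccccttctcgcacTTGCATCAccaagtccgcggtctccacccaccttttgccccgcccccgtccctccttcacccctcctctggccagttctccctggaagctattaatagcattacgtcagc

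Chaperones of the endoplasmic reticulum, which are induced by unfolded proteins, were highest in iron-loaded mouse 1. The list median was 0.33, with 0.69, 0.10 and 0.11 in the 3 iron-loaded libraries. Dnajb9, a co-chaperone, rose by 1.14 ± 0.17, whereas Hspa5, the chaperone BiP, was at 367, 344 and 499 CPM in the controls and 1175, 427 and 426 CPM with iron and was not called (0.74 ± 0.38, edgeR adjusted p = 0.206). Of 26 tested members, 3 (11.5%) were called higher and 1 (3.85%) lower, against 8.77% and 8.37% of all genes. The counts were 3 and 0 with the summed pair and 1 and 0 without control 2. Among targets of p53, Gadd45a, a growth-arrest gene, stood at 3.32, 3.04 and 2.78 CPM in the controls and 47.9, 7.57 and 7.17 CPM with iron (2.77 ± 0.75), and Trp53inp1 at 42.8, 41.4 and 64.3 CPM in the controls and 227, 99.0 and 98.4 CPM with iron (1.52 ± 0.34). Among 23 tested of 25 listed members, 5 passed the test as higher and 3 as lower, 4 and 1 with the summed pair, and 0 and 2 without control 2, with a median of 0.24. Gadd45a lost its call without control 1, 2 or 3 (2.71 to 2.84) and Trp53inp1 without control 1 or 2 (1.40 to 1.42). Their log2 fold changes without iron-loaded 1 were 1.27 and 1.00.

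Targets of NRF2, the factor that answers oxidants and electrophiles, rose in part. Abcc4 (ENSMUSG00000032849, chr14:118482692-118706219), an exporter of bile acids and conjugates at the sinusoidal membrane, went from 2.24, 1.89 and 1.39 CPM to 91.9, 23.1 and 22.9 CPM (4.62 ± 0.64, edgeR adjusted p = 0.00514). Akr1b8, an aldo-keto reductase, rose from 3.20, 3.25 and 2.24 CPM to 17.2, 20.1 and 18.2 CPM (2.66 ± 0.17), and Gstp1, a glutathione transferase, from 15.4, 13.2 and 15.5 CPM to 47.6, 35.9 and 36.3 CPM (1.44 ± 0.14). For Akr1b8 the 3 iron-loaded mice were alike, while for Abcc4 mouse 1 stood near 4 times the others, and without it the log2 fold change was 3.62. Gsta2 (2.14 ± 0.47) and Gstm3 (1.15 ± 0.14), which also conjugate glutathione, rose as well. Calls over 36 tested of 38 listed members numbered 13 higher and 0 lower, 10 and 0 with the summed pair, and 8 and 0 without control 2. The list median was 0.29, with 0.40, 0.23 and 0.20 in the 3 libraries. For Gsta2, Gstm3 and Gstp1, 49.8%, 28.8% and 33.7% of 50-base stretches occur in other genes.

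Some antioxidant enzymes fell. Gpx1, the selenium-dependent glutathione peroxidase, fell from 987, 971 and 1312 CPM to 367, 496 and 509.7 CPM (-1.25 ± 0.18, edgeR adjusted p = 0.00581), and Cat, catalase, from 2509.6, 2346 and 3113 CPM to 1174, 1686 and 1695 CPM (-0.81 ± 0.19). Txnrd2, the mitochondrial thioredoxin reductase, fell (-0.69 ± 0.10). Txnip, which binds thioredoxin, rose by 0.93 ± 0.17. In all, 1 of 23 tested members was higher and 5 lower by the test, compared with 1 and 2 for the summed pair and 1 and 2 without control 2, with a median of -0.24. Metallothioneins Mt1 (-0.40 ± 0.15) and Mt2 (-0.51 ± 0.21) were not called, and Slc30a10, a manganese exporter, fell (-1.06 ± 0.16). Slc30a1 and Slc30a7, of the same transporter family, had log2 fold changes of 0.56 and 0.42. Of 24 tested of 25 listed metallothioneins and metal transporters, 2 (8.33%) were called higher and 1 (4.17%) lower, below the 8.77% and 8.37% of all genes. The counts were 0 and 1 with the summed pair and 0 and 1 without control 2, and the median was 0.08. Cat lost its call without control 1, 2 or 3 or iron-loaded 2 or 3 or with the summed pair (-0.89 to -0.68), Txnip without control 3 (0.87), and Gsta2 without control 2 or 3 or iron-loaded 2 or 3 (1.74 to 2.29).

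The antioxidant response element, searched as TGACNNNGC on both strands, occurs upstream of 2 of 11 matched genes among the 13 NRF2 targets called higher, Abcc4 and Ugdh, against 10.2% of all promoters and 11.5% of genes, and of 6 of 20 matched members that were not called. The stretch shown, Abcc4 at chr14:118706220-118706469 (minus strand), carries it 25 bases before the start on the opposite strand, in capitals.
Abcc4: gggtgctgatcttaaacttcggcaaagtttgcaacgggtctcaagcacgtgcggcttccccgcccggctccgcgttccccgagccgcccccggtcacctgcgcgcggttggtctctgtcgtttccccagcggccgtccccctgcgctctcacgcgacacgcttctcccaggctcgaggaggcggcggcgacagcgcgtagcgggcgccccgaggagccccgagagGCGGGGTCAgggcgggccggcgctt

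Genes of activated macrophages rose strongly. Mmp12 (ENSMUSG00000049723, chr9:7344381-7369499), macrophage elastase, rose from 0.242, 1.29 and 0.541 CPM to 21.6, 16.8 and 14.4 CPM (4.68 ± 0.40, edgeR adjusted p = 0.00107). Gpnmb, a transmembrane glycoprotein of lipid-laden macrophages, rose from 0.181, 0.203 and 0.309 CPM to 9.25, 2.68 and 3.83 CPM (4.49 ± 0.62), and Cd63, a tetraspanin of late endosomes and lysosomes, from 1.03, 1.49 and 0.463 CPM to 11.7, 12.6 and 11.2 CPM (3.54 ± 0.29). Trem2, a lipid receptor of phagocytes, was at 1, 0 and 1 counts in the controls and 18, 13 and 11 counts with iron and was called higher. Lpl, lipoprotein lipase, which adult hepatocytes make little of, rose from 28.9, 48.3 and 34.8 CPM to 275, 248 and 247 CPM (2.78 ± 0.19, edgeR adjusted p = 0.000505). Without control 2 the log2 fold change of Mmp12 was 5.52, and without iron-loaded 1 that of Gpnmb was 3.80. The values of Cd63 and Lpl hardly differed among the iron-loaded mice.

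These genes belong to a list of phagocytic, lipid-handling macrophages. Of 23 tested of 24 listed members, 14 were called higher and 1 lower, against 10 and 1 with the summed pair and 10 and 1 without control 2. The list median was 0.93, with 0.61, 0.72 and 0.95 in the iron-loaded libraries and 0.09, 0.05 and -0.14 in the controls. Plin2, a coat protein of lipid droplets that hepatocytes also make, was the member that fell (-1.39 ± 0.14). The summed level of the list was 950.2, 1169 and 1028 CPM in the controls and 952, 943 and 939 CPM with iron, so that the sum did not rise although its median did. Trem2 did not reach the stricter filter or the filter at the drawn depth and kept its call in the other 11 fits. The defining members Trem2, Gpnmb and Mmp12 were low but present in all iron-loaded libraries.

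General Kupffer cell markers had a median somewhat above that of all genes. Marco, a scavenger receptor of Kupffer cells, rose from 9.55, 8.66 and 4.94 CPM to 92.6, 54.6 and 53.5 CPM (3.10 ± 0.29, edgeR adjusted p = 0.00143), and Vsig4, a complement receptor, by 0.68 ± 0.12. Clec4f, the most restricted Kupffer cell marker of the mouse, stood at 202, 161 and 134 CPM in the controls and 174, 188 and 181 CPM with iron (0.13 ± 0.15), and Cd5l at 183, 173 and 129 CPM in the controls and 194, 202 and 209.7 CPM with iron (0.32 ± 0.14), and neither was called. Among 25 tested of 26 listed members, 4 passed the test as higher and 1 as lower, 4 and 1 with the summed pair, and 4 and 1 without control 2. The median was 0.36, with 0.34, 0.37 and 0.37 in the iron-loaded libraries, and 21 of the 25 had log2 fold changes above 0. The summed level of the 25 markers was 1695, 1494 and 1334 CPM in the controls and 1982, 2067 and 2047 CPM with iron, and 2 of the 4 risen members, Slc40a1 and Hmox1, are also expressed by other liver cells.

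Some genes of blood-borne myeloid cells rose, all at low levels. S100a9, a calcium-binding protein of neutrophils and monocytes, rose from 0.725, 0.677 and 0.309 CPM to 2.01, 4.27 and 3.62 CPM (2.48 ± 0.41), and Itgax, the integrin CD11c, from 1.75, 1.22 and 0.772 CPM to 5.90, 3.58 and 3.98 CPM (1.82 ± 0.33). Csf3r, the receptor of granulocyte colony-stimulating factor, rose by 1.08 ± 0.24. Calls over 14 tested of 28 listed members numbered 6 higher and 0 lower, 4 and 0 with the summed pair, and 3 and 0 without control 2, and the other 14 members did not reach the filter, at no more than 25 counts in any library. The list summed to 68.8, 56.8 and 46.7 CPM in the controls and 104, 101.2 and 103 CPM with iron. Among chemokines, Ccl2, which attracts monocytes, rose from 0.242, 0.338 and 0.309 CPM to 1.88, 1.79 and 2.34 CPM (2.73 ± 0.34), Ccl6 from 9.79, 7.58 and 9.27 CPM to 37.0, 27.3 and 30.9 CPM (1.84 ± 0.16) and the receptor Cxcr4 by 2.16 ± 0.37. In all, 4 of 25 tested of 44 listed members were higher and 3 lower by the test, compared with 3 and 2 for the summed pair and 4 and 0 without control 2. Csf3r lost its call without iron-loaded 3 (1.06).

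Lymphocyte markers were called about as often as all genes or less. Il7r, the interleukin-7 receptor, rose from 0.302, 0.406 and 0.386 CPM to 2.35, 1.58 and 1.56 CPM (2.31 ± 0.36), and Ighm, the heavy chain of immunoglobulin M, fell from 42.7, 33.7 and 25.1 CPM to 11.3, 11.1 and 10.2 CPM (-1.64 ± 0.19, edgeR adjusted p = 0.00294). Of 23 tested of 34 listed members, 2 were called higher and 1 lower, against 2 and 1 with the summed pair and 1 and 1 without control 2, against 8.77% higher and 8.37% lower of all genes, with a median of 0.00. Class II antigen presentation had a median of 0.64, but control 1 (0.55, 0.01 and -0.50 for controls 1 to 3) reached the level of the iron-loaded libraries (0.56, 0.69 and 0.66). Cd74, the invariant chain, stood at 135, 97.0 and 68.0 CPM in the controls and 186, 163 and 161 CPM with iron (0.77 ± 0.22). Among 11 tested of 13 listed members, 2 passed the test as higher and 0 as lower, 1 and 0 with the summed pair, and 0 and 0 without control 2. Cd74 lost its call without control 2 or 3 or iron-loaded 1, 2 or 3 or with the summed pair (0.55 to 0.81).

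**Figure D4:**
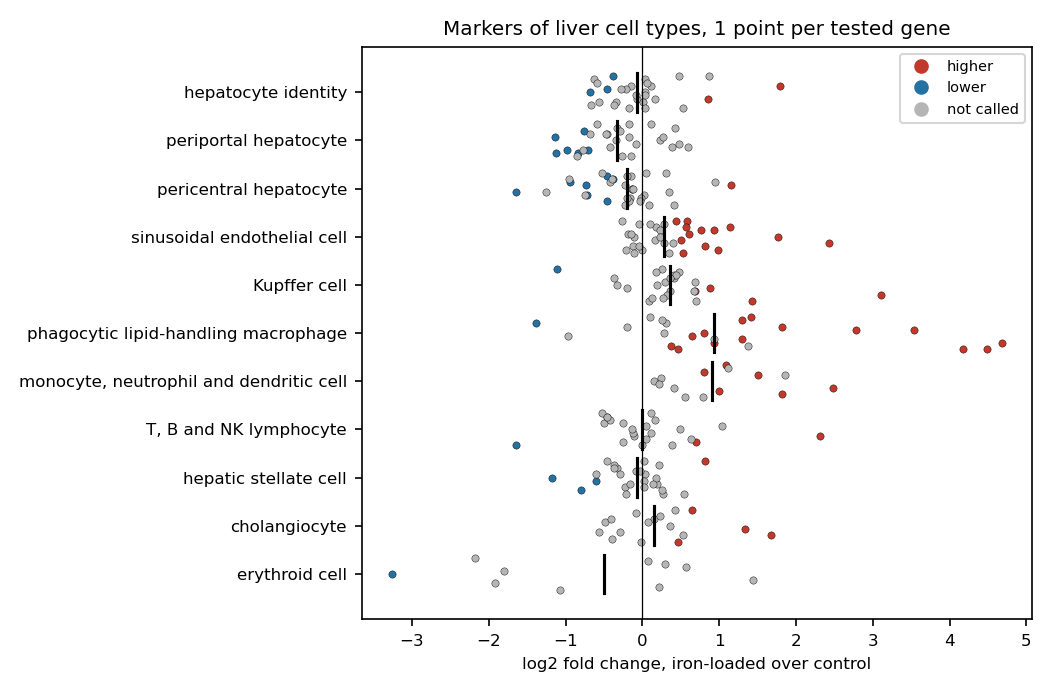
Each point is the log2 fold change of 1 tested marker gene, iron-loaded over control, in red where called higher, blue where called lower and grey where not called, and black bars mark list medians. The macrophage list reaches 4.68 (Mmp12) and has a median of 0.93, the endothelial list has 13 members called higher and 0 lower, and the stellate cell and hepatocyte identity lists have medians of -0.07.

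Sinusoidal endothelial markers rose in part, and none was called lower. After Bmp6, the largest change was in Lyve1, a hyaluronan receptor of these cells, from 4.71, 4.13 and 2.70 CPM to 15.1, 10.9 and 13.6 CPM (1.77 ± 0.22, edgeR adjusted p = 0.00374). Wnt2 and Wnt9b, the endothelial ligands that set up pericentral gene expression, rose from 3.02, 3.32 and 3.17 CPM to 6.03, 6.12 and 6.67 CPM (0.99 ± 0.16) and from 1.75, 2.37 and 1.39 CPM to 4.29, 3.85 and 4.12 CPM (1.14 ± 0.24). Stab2, a scavenger receptor of the same cells, was not called (-0.15 ± 0.15). Calls over 32 tested members numbered 13 higher and 0 lower, 7 and 0 with the summed pair, and 6 and 0 without control 2. The median was 0.28, with 0.22, 0.34 and 0.37 in the 3 libraries, and the summed level was 1516, 1496 and 1246 CPM in controls and 1510.3, 1799 and 1827 CPM with iron. Wnt9b lost its call without control 1 or 3 or iron-loaded 3 (0.99 to 1.14).

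Markers of stellate cells and of matrix had medians near 0. In all, 1 of 27 tested members was higher and 3 lower by the test, compared with 0 and 0 for the summed pair and 0 and 0 without control 2, and the median was -0.07. Ngfr (-1.17 ± 0.32) and Des (-0.80 ± 0.20), markers of stellate cells, fell and Hgf, the hepatocyte growth factor, rose (0.81 ± 0.20). Col4a1 and Col4a2, chains of basement membrane collagen, rose, with Col4a1 at 70.3, 63.2 and 47.7 CPM in the controls and 105, 102 and 103 CPM with iron (0.77 ± 0.14) and Col4a2 up by 1.00 ± 0.13, while Col15a1 and Col6a2 fell (-0.92 ± 0.23 and -1.07 ± 0.20) and Col18a1 was not called (-0.08 ± 0.12). Timp3, an inhibitor of matrix proteases, rose by 0.95 ± 0.17. Of 43 tested of 48 listed members, 5 were called higher and 3 lower, against 5 and 1 with the summed pair and 4 and 1 without control 2, and the median was -0.02. Ngfr lost its call without control 1, 2 or 3 or iron-loaded 3 or with the summed pair (-1.31 to -1.13), Des without control 1 or 2 or iron-loaded 2 or 3 or with the summed pair (-0.82 to -0.69), and Hgf and Col15a1 without control 2 or 3 or iron-loaded 2 or 3 or with the summed pair (0.64 to 0.86 and -1.04 to -0.58).

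Some biliary markers rose, and 1 of 10 tested red cell markers was called lower, a share near that of all genes. Tspan8 (1.68 ± 0.39), Muc1 (1.34 ± 0.30) and Spp1 (0.65 ± 0.12), genes of the biliary epithelium, rose. Spp1, osteopontin, is also made by macrophages. Among 17 tested of 25 listed members, 4 passed the test as higher and 0 as lower, 2 and 0 with the summed pair, and 1 and 0 without control 2. Red cell transcripts varied widely among the perfused controls, where Hba-a1, an alpha globin, stood at 3.99, 18.7 and 46.9 CPM, against 3.55, 4.89 and 6.82 CPM with iron, and was not called (-2.18 ± 0.73), with 72.3% of its 50-base stretches shared with other genes. Slc4a1, the red cell anion exchanger, fell (-3.26 ± 0.76). Over 10 tested of 18 listed red cell members, 0 were called higher and 1 (10%) lower, against 8.37% of all genes called lower. The counts were 0 and 0 with the summed pair and 0 and 1 without control 2. Of the markers of pancreas, fat and muscle, tissues that could be carried along, Car3 was the only tested member, at 1879, 1761 and 2614 CPM in the controls and 45.1, 259 and 260.3 CPM with iron, and fell (-3.47 ± 0.58). Of the 14 untested members, 6 were at 0 in all 6 libraries and the rest at no more than 13 counts. Tspan8 lost its call without control 2 or 3 or iron-loaded 2 or with the summed pair (1.32 to 1.71), Muc1 without control 1, 2 or 3 or iron-loaded 3 (1.26 to 1.40), and Slc4a1 without iron-loaded 2 or 3 or with the summed pair (-3.56 to -2.96). Without control 2 the log2 fold change of Slc4a1 was -2.11.

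Genes of hepatocyte identity were level as a list. Alb, albumin, took 119549, 128698 and 141500 CPM in the controls and 87356, 131600 and 133070 CPM with iron and was not called (-0.15 ± 0.24), being lowest in iron-loaded mouse 1. Calls over 28 tested members numbered 2 higher and 3 lower, 1 and 0 with the summed pair, and 1 and 0 without control 2, with a median of -0.07. Serpina1d, an alpha-1 antitrypsin gene, rose from 214, 270.5 and 199.9 CPM to 489, 942 and 937 CPM (1.79 ± 0.26), although 50.9% of its 50-base stretches occur in its paralogs. Foxa2, a hepatocyte transcription factor, fell (-0.68 ± 0.20). Foxa2 lost its call without control 1, 2 or 3 or iron-loaded 2 or 3 or with the summed pair or at the drawn depth (-0.82 to -0.42).

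Many genes of fetal liver and regrowth rose. H19, an imprinted long noncoding RNA of fetal liver, went from 2.24, 3.11 and 1.78 CPM to 24.2, 80.2 and 78.2 CPM (4.67 ± 0.49, edgeR adjusted p = 0.00187). Ly6d, a cell surface protein, rose from 1.33, 2.98 and 1.62 CPM to 11.2, 12.5 and 15.5 CPM (2.72 ± 0.29), and Afp, alpha-fetoprotein, from 0.846, 1.08 and 1.24 CPM to 1.94, 2.89 and 3.55 CPM (1.41 ± 0.31), still a low level. In all, 10 of 21 tested of 37 listed members were higher and 0 lower by the test, compared with 4 and 0 for the summed pair and 3 and 0 without control 2, with a median of 0.54. Among cell cycle genes Myc rose from 3.38, 3.86 and 2.24 CPM to 39.9, 12.4 and 11.4 CPM (2.74 ± 0.51) and Ccne1, cyclin E1, from 1.09, 1.22 and 0.309 CPM to 4.42, 5.78 and 5.68 CPM (2.56 ± 0.37), while E2f8, a repressor of the E2F family, fell (-2.07 ± 0.35). Of 45 tested of 53 listed members, 4 (8.89%) were called higher and 2 (4.44%) lower, near or below the 8.77% and 8.37% of all genes. The counts were 3 and 1 with the summed pair and 2 and 1 without control 2. The per-library medians of -0.22, 0.32 and 0.46 lay within the range of the controls or close to it (0.01, 0.40 and -0.31). Afp lost its call without control 1, 2 or 3 or iron-loaded 2 or 3 or with the summed pair (1.20 to 1.53) and Myc without control 3 (2.55). Without iron-loaded 1 the log2 fold change of Myc was 1.90.

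Enzymes of cholesterol synthesis rose in part, most clearly in mice 2 and 3. Sqle (ENSMUSG00000022351, chr15:59315077-59331192), squalene epoxidase, rose from 20.1, 51.7 and 38.0 CPM to 147, 162 and 166 CPM (2.11 ± 0.29, edgeR adjusted p = 0.00485). Fdft1, squalene synthase, rose by 0.95 ± 0.16. Fdps, farnesyl diphosphate synthase, stood at 7.98, 13.3 and 11.97 CPM in the controls and 13.9, 32.00 and 29.0 CPM with iron (1.18 ± 0.31), with iron-loaded mouse 1 near the highest control. Ebp, a sterol isomerase, was the member that fell (-0.72 ± 0.21). Among 25 tested members, 9 passed the test as higher and 1 as lower, 6 and 0 with the summed pair, and 8 and 0 without control 2. The median was 0.62, with 0.17, 0.90 and 0.83 in libraries 1, 2 and 3. The sterol response element, searched as TCACNCCAC on both strands, was in 0 of the 4 matched promoters among the 9 genes called higher and in 1 of 12 of members not called, against 1.05% of all promoters and 1.22% of genes. Fdps lost its call without control 1, 2 or 3 or iron-loaded 2 or 3 or with the summed pair (0.96 to 1.33) and Ebp without control 1, 2 or 3 or iron-loaded 2 or 3 or with the summed pair or with DESeq2 size factors or under the stricter filter (-0.87 to -0.66).

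Some genes of fatty acid and triglyceride synthesis fell. Elovl3, an elongase of very long chain fatty acids, fell from 4.83, 6.43 and 3.32 CPM to 1.47, 1.79 and 1.21 CPM (-1.70 ± 0.30, edgeR adjusted p = 0.0103). Elovl5 (-1.44 ± 0.18), which elongates polyunsaturated fatty acids, and Acacb (-1.44 ± 0.22), the acetyl-CoA carboxylase of mitochondria, fell as well. Scd1, the stearoyl-CoA desaturase, stood at 15279.8, 13386 and 11581 CPM in the controls and 189, 3550.4 and 3607 CPM with iron but was not called (-2.45 ± 0.83, edgeR adjusted p = 0.0743). Iron-loaded mouse 1 stood far below mice 2 and 3, and all of them below the controls. Calls over 30 tested of 33 listed members numbered 3 higher and 9 lower, 1 and 7 with the summed pair, and 1 and 7 without control 2. The median was -0.39, with -0.66, -0.32 and -0.32 in the 3 libraries. Scd1 was called lower without iron-loaded 1 (log2 fold change -1.90) and with no expression filter (-2.44).

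Fatty acid oxidation and other targets of PPAR-alpha, the fasting-induced lipid receptor, fell in part, with a single large exception. Acot1, an acyl-CoA thioesterase, fell from 8.10, 36.1 and 17.6 CPM to 4.02, 2.62 and 2.06 CPM (-2.82 ± 0.53), and Vnn1, a pantetheinase, from 16.7, 37.2 and 25.2 CPM to 7.30, 10.6 and 9.80 CPM (-1.51 ± 0.28). Fabp1, the liver fatty acid binding protein, was at 1446, 2355 and 2265 CPM in the controls and 521, 1004 and 1012 CPM with iron (-1.26 ± 0.29). Cyp4a14, a fatty acid omega-hydroxylase often used as a PPAR-alpha readout, rose from 27.9, 75.2 and 39.5 CPM to 557, 283 and 284 CPM (2.98 ± 0.41, edgeR adjusted p = 0.00494). In all, 1 of 44 tested of 46 listed members was higher and 15 lower by the test, compared with 1 and 7 for the summed pair and 2 and 5 without control 2, with a median of -0.37 that was alike in the 3 libraries (-0.35, -0.37 and -0.38). Eci3, a peroxisomal enoyl-CoA isomerase, fell from 7.55, 11.0 and 5.41 CPM to 0.134, 0.275 and 0.639 CPM (-4.50 ± 0.46). Fabp1 lost its call without control 2 or 3 (-1.17 to -1.14). The log2 fold change of Acot1 without control 2 was -2.14, and that of Eci3 without iron-loaded 3 was -5.24.

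Apolipoprotein genes had a list median of -0.17. Apoa5, an activator of lipoprotein lipase, rose (0.95 ± 0.20), and Apoa2 (-0.67 ± 0.18), Apoc1 (-0.74 ± 0.14) and hepatic lipase Lipc (-0.82 ± 0.10) fell. Apoa2, a major protein of high density lipoprotein, went from 4469, 4161 and 5048 CPM to 2231, 3169 and 3217 CPM. Of 29 tested members, 2 were called higher and 3 lower, against 1 and 2 with the summed pair and 2 and 2 without control 2. Apoa5 lost its call without control 3 or iron-loaded 2 or 3 or with the summed pair (0.93) and Apoa2 without control 1, 2 or 3 or iron-loaded 2 or 3 or with the summed pair (-0.75 to -0.59).

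Several genes of bile acid synthesis fell. Cyp8b1, the sterol 12-alpha-hydroxylase that makes cholic acid, fell from 612, 609 and 580.4 CPM to 285, 288 and 296 CPM (-1.05 ± 0.10, edgeR adjusted p = 0.00149), with little spread in either diet. Cyp7b1, of the alternative pathway, fell from 20.7, 24.2 and 24.3 CPM to 6.84, 11.6 and 11.6 CPM (-1.20 ± 0.20), and Nr0b2, the nuclear receptor SHP that represses bile acid synthesis, from 18.1, 19.7 and 28.1 CPM to 4.83, 6.88 and 7.38 CPM (-1.79 ± 0.22). Cyp39a1, an oxysterol 7-alpha-hydroxylase, was the member that rose most, at 23.1, 13.5 and 29.8 CPM in the controls and 212, 67.6 and 75.9 CPM with iron (2.42 ± 0.47). Among 22 tested members, 2 passed the test as higher and 8 as lower, 1 and 5 with the summed pair, and 1 and 6 without control 2, with a median of -0.36 and -0.46, -0.36 and -0.34 in the 3 libraries. Cyp39a1 lost its call without control 1 or 2 (2.16 to 2.46), and its log2 fold change without iron-loaded 1 was 1.71.

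Transporters of bile acids and drugs changed in both directions. Slco1a1 (ENSMUSG00000041698, chr6:141907282-141946962), an organic anion uptake carrier, dropped from 25.6, 63.9 and 77.4 CPM to 0.0670, 0.344 and 0.426 CPM (-7.61 ± 0.61, edgeR adjusted p = 0.000818), which rests on 1, 5 and 6 counts in the iron-loaded libraries. Abcb11, the canalicular bile salt export pump, fell from 1056, 1009 and 1228 CPM to 696, 642 and 653 CPM (-0.73 ± 0.13). Abcb1a (1.17 ± 0.24) and Abcc3 (0.73 ± 0.19), exporters of drugs and conjugates, rose along with Abcc4. Calls over 24 tested of 26 listed members numbered 4 higher and 6 lower, 2 and 4 with the summed pair, and 1 and 2 without control 2, and the list median was 0.02. Abcb1a lost its call without control 1 or 2 (0.97 to 1.20) and Abcc3 without control 2 or 3 or iron-loaded 2 or 3 or with the summed pair (0.58 to 0.74).

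More conjugating enzymes and cytochromes P450 fell than rose. Ugt2b37, a glucuronosyltransferase, was at 52, 101 and 48 counts in the controls and 0, 1 and 1 counts with iron and was called lower. Nnmt, which methylates nicotinamide, fell from 23.02, 11.4 and 22.0 CPM to 0.871, 1.65 and 1.63 CPM (-3.76 ± 0.35, edgeR adjusted p = 0.00143). Gstt3 (-2.16 ± 0.34) and Sult5a1 (-1.83 ± 0.25) fell too, in contrast to Gsta2, Gstp1 and Gstm3 above. In all, 7 of 48 tested of 54 listed members were higher and 13 lower by the test, compared with 5 and 10 for the summed pair and 4 and 9 without control 2, with a median of -0.36. Cyp2b13, a female-biased P450, fell from 269, 228 and 310.4 CPM to 60.2, 128 and 120 CPM (-1.39 ± 0.27), as did Cyp1a2, a pericentral enzyme of drug oxidation (-0.73 ± 0.13). Por, the reductase that feeds electrons to the P450 enzymes of the endoplasmic reticulum, rose from 378, 449 and 209 CPM to 1100, 626 and 608 CPM (1.17 ± 0.32). Of 49 tested of 57 listed members, 1 was called higher and 14 lower, against 0 and 9 with the summed pair and 0 and 8 without control 2, with a median of -0.26. Cyp2b13 lost its call without control 3 (-1.27) and Por without control 1, 2 or 3 or iron-loaded 2 or 3 or with the summed pair (0.91 to 1.40).

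Some genes of both zones of the lobule fell. For periportal hepatocytes the median was -0.34, with Gls2, the liver glutaminase, falling from 554, 333 and 473 CPM to 157, 227 and 234 CPM (-1.14 ± 0.22). Among 28 tested members, 0 passed the test as higher and 6 as lower, 0 and 3 with the summed pair, and 0 and 5 without control 2. For pericentral hepatocytes the median was -0.20, and Cyp2e1, which oxidizes ethanol, was not called (0.09 ± 0.20). Calls over 33 tested members numbered 1 higher and 7 lower, 1 and 3 with the summed pair, and 2 and 3 without control 2. Gls2 lost its call without control 3 (-1.11).

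Enzymes of amino acid breakdown fell broadly. Oat (ENSMUSG00000030934, chr7:132557478-132576398), ornithine aminotransferase, fell from 499.8, 344 and 606 CPM to 173, 148 and 144 CPM (-1.64 ± 0.20, edgeR adjusted p = 0.00365). Hpd and Hgd, successive enzymes of tyrosine breakdown, fell, Hpd from 2317, 1799.7 and 2551 CPM to 1088, 1028 and 1046 CPM (-1.08 ± 0.16) and Hgd alike (-1.08 ± 0.20). Acmsd, at a branch point of tryptophan breakdown, fell from 19.3, 8.66 and 21.4 CPM to 5.70, 4.75 and 4.33 CPM (-1.73 ± 0.32). In all, 1 of 59 tested members was higher and 28 lower by the test, compared with 1 and 14 for the summed pair and 0 and 16 without control 2. The median was -0.44, and the 3 iron-loaded libraries were alike (-0.49, -0.39 and -0.38). Csad, which makes the taurine precursor hypotaurine, was the only member called higher, at 23.4, 44.3 and 22.3 CPM in the controls and 212, 65.6 and 65.0 CPM with iron (1.93 ± 0.49). Csad lost its call without control 1, 2 or 3 (1.76 to 2.32), and its log2 fold change without iron-loaded 1 was 1.12.

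Nitrogen disposal and serine and folate enzymes changed member by member. In the urea cycle Ass1, argininosuccinate synthase, fell from 1494, 922 and 1269 CPM to 836, 705 and 711 CPM (-0.71 ± 0.19), and Cps1, the entry enzyme, was not called (-0.34 ± 0.23). Slc38a2, an amino acid importer, rose by 1.13 ± 0.11. Of 20 tested members, 2 were called higher and 3 lower, against 2 and 1 with the summed pair and 1 and 2 without control 2. Besides Psat1 and Mthfd1l, the folate carrier Slc19a1 rose (0.99 ± 0.16) and Fpgs, which retains folates in the cell, fell (-1.01 ± 0.12). Among 22 tested of 24 listed members, 5 passed the test as higher and 4 as lower, 5 and 1 with the summed pair, and 3 and 1 without control 2, and the median was -0.10. Ass1 lost its call without control 1 or 3 or iron-loaded 2 or 3 or with the summed pair (-0.69 to -0.54).

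Some genes of glucose metabolism rose. Pfkfb3, which makes the activator of glycolysis fructose 2,6-bisphosphate, rose by 1.63 ± 0.21. Pck1, the gluconeogenic PEP carboxykinase, was at 1418, 840.4 and 1302 CPM in the controls and 768, 1294 and 1288 CPM with iron and not called (-0.09 ± 0.25). Calls over 44 tested members numbered 8 higher (18.2%) and 2 lower (4.55%), against 8.77% and 8.37% of all genes. With the summed pair they numbered 3 and 0. Without control 2 they numbered 1 (2.27%) and 0, the former below the 3.09% of all genes called higher. The median was 0.01, near the 0.02 of all genes.

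Some genes of the growth hormone axis fell, as did the major urinary proteins, whose levels are known to depend on that hormone. Stat5b, the factor that carries the growth hormone signal, fell (-0.76 ± 0.14), as did Stat5a (-1.01 ± 0.13) and the cytokine receptor Lifr (-1.02 ± 0.18). Ghr, the growth hormone receptor, was not called (-0.65 ± 0.29). Igfbp1, which binds insulin-like growth factors and is induced by fasting and stress, rose from 50.5, 46.1 and 90.1 CPM to 1283, 258 and 255 CPM (3.27 ± 0.66), highest by far in mouse 1. In all, 1 of 22 tested of 25 listed members was higher and 5 lower by the test, compared with 1 and 4 for the summed pair and 1 and 4 without control 2, and the median was -0.12. Mup3 (ENSMUSG00000066154, chr4:62083476-62087342), a lipocalin of the major urinary protein cluster on chromosome 4, fell from 816, 897 and 1366 CPM to 6.57, 25.7 and 22.9 CPM (-5.80 ± 0.51, edgeR adjusted p = 0.00131), and Mup9 from 52.7, 38.2 and 67.0 CPM to 0.804, 0.551 and 0.639 CPM (-6.29 ± 0.29). Of 9 tested of 22 listed members, 0 were called higher and 8 lower, against 0 and 7 with the summed pair and 0 and 8 without control 2, with a median of -5.54. Mup18, at 108, 82 and 73 counts in the controls and 5, 0 and 1 with iron, passed the filter only through the controls. Such members could only be seen to fall, so that the filter has a part in the count of members called lower and in the median. Of their 50-base stretches, 13.3% in Mup3 and 79.1% in Mup9 occur in other genes, so that the split of reads among members is uncertain. Igfbp1 lost its call without control 1 or 2 (3.09 to 3.14), and without iron-loaded 1 its log2 fold change was 2.05.

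Acute phase proteins diverged. Saa1 and Saa2, the serum amyloid A genes induced by interleukin-6, fell, Saa1 from 1285, 659 and 306 CPM to 21.8, 91.7 and 89.0 CPM (-3.48 ± 0.65, edgeR adjusted p = 0.0123) and Saa2 alike (-3.59 ± 0.62). Apcs, serum amyloid P, rose from 209, 293 and 248 CPM to 978, 801 and 799.6 CPM (1.78 ± 0.16), as did Itih3, of the inter-alpha-trypsin inhibitors, from 583, 1111 and 1385 CPM to 2406, 2499.8 and 2516 CPM (1.27 ± 0.28), and Cd14, the co-receptor of endotoxin, by 1.72 ± 0.27. Hp, haptoglobin, was not called (0.39 ± 0.17). Saa1 levels of the controls spread over a 4-fold range but stayed above all iron-loaded values. Among 36 tested of 37 listed members, 6 passed the test as higher and 4 as lower, 4 and 4 with the summed pair, and 4 and 4 without control 2, with a median of 0.05. Of the 50-base stretches of Saa1, 31.5% occur in other genes. Itih3 lost its call without control 2 or iron-loaded 3 or with the summed pair (1.26 to 1.33). Without control 1 the log2 fold changes of Saa1 and Saa2 were -2.84 and -2.91.

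Complement and clotting genes were level as a list, with a median of 0.00. C9, of the membrane attack complex, fell from 262, 243 and 339 CPM to 38.3, 95.2 and 89.1 CPM (-1.92 ± 0.32). Kng1, kininogen, rose from 2072, 2159 and 2407 CPM to 3317, 3707 and 3773 CPM (0.70 ± 0.14). Calls over 51 tested of 54 listed members numbered 5 higher and 4 lower, 1 and 3 with the summed pair, and 1 and 1 without control 2. Kng1 lost its call without control 1 or 2 or iron-loaded 2 or 3 or with the summed pair (0.66 to 0.68).

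Interferon-stimulated genes fell in part. Cmpk2, a mitochondrial nucleotide kinase of the antiviral response, fell from 4.53, 5.14 and 5.48 CPM to 1.74, 2.00 and 2.20 CPM (-1.35 ± 0.20, edgeR adjusted p = 0.00624). Isg15, a ubiquitin-like modifier, fell from 3.93, 4.53 and 4.87 CPM to 1.21, 2.48 and 2.27 CPM (-1.16 ± 0.28), and Oasl2, of the 2'-5' oligoadenylate synthetase family, fell too (-1.20 ± 0.27). In all, 0 of 46 tested of 47 listed members were higher and 11 lower by the test, compared with 0 and 5 for the summed pair and 0 and 2 without control 2. The median was -0.49, with -0.80, -0.28 and -0.25 in libraries 1, 2 and 3, so that mouse 1 was lowest. Without control 2 the share of members called lower came close to the 3.18% of all genes. Isg15 lost its call without control 1, 2 or 3 or iron-loaded 3 or with the summed pair or at the drawn depth (-1.26 to -0.90) and Oasl2 without control 1, 2 or 3 or iron-loaded 2 (-1.30 to -1.06).

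Many cytosolic ribosomal protein genes rose by small amounts. Of 72 tested of 82 listed members, 29 were called higher and 0 lower, against 15 and 0 with the summed pair and 4 and 0 without control 2. The median was 0.49, with 0.71, 0.31 and 0.33 in the 3 iron-loaded libraries and -0.01, 0.03 and -0.02 in the controls. Rpl22l1, a paralog of the large subunit protein RPL22, rose most among the called members, from 7.31, 8.32 and 7.42 CPM to 19.7, 15.1 and 13.1 CPM (1.06 ± 0.17, edgeR adjusted p = 0.00860), and Rpl5 rose from 4.11, 4.26 and 4.94 CPM to 9.65, 6.54 and 8.45 CPM (0.89 ± 0.19). Many of these genes have processed pseudogenes that share reads, with 25.9% of Rpl5 stretches found in other genes, so that single levels are uncertain. Rpl5 lost its call without control 1 or 2 or iron-loaded 3 (0.84 to 0.87).

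Respiratory chain subunits encoded in the nucleus fell in part, by small amounts. Atp5k, of ATP synthase, fell from 48.4, 42.3 and 52.99 CPM to 21.3, 31.2 and 29.1 CPM (-0.81 ± 0.16), and Ndufb8, of complex I (-0.66 ± 0.09), and Sdha, of complex II (-0.64 ± 0.13), fell as well. Among 76 tested of 77 listed members, 0 passed the test as higher and 20 as lower, 0 and 6 with the summed pair, and 0 and 8 without control 2, with a median of -0.31 and -0.37, -0.28 and -0.26 in the 3 libraries. Mitochondrially encoded genes had a median of -0.27 over 9 tested members, none of which was called, and took 3.38% of counts in iron-loaded library 1 and 3.59% to 4.11% in the other 5. mt-Co2, mt-Co3 and mt-Nd3 were listed at 0 in all 6 libraries. Lysosomal genes had a median of 0.10 and rose in members with and without ties to macrophages, such as Asah1, acid ceramidase (0.57 ± 0.10). Calls over 69 tested members numbered 11 higher and 4 lower, 6 and 1 with the summed pair, and 3 and 0 without control 2. Atp5k and Sdha lost their calls without control 3 (-0.74 and -0.58).

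Members of the circadian clock list differed between the diets in both directions. Per1 and Per2, which repress their own activators, rose from 53.7, 10.1 and 19.2 CPM to 123, 132 and 123 CPM (2.18 ± 0.49) and from 16.7, 18.00 and 11.7 CPM to 42.5, 59.3 and 58.1 CPM (1.78 ± 0.19, edgeR adjusted p = 0.00188). Ciart, a further repressor, stood at 7.80, 1.62 and 0.695 CPM in the controls and 31.4, 31.9 and 31.2 CPM with iron (3.17 ± 0.59), and Usp2, a deubiquitinase with a daily rhythm, at 13.1, 7.71 and 2.94 CPM in the controls and 37.1, 70.6 and 70.4 CPM with iron (2.88 ± 0.45). Npas2 (-2.77 ± 0.72), an activator, and Nfil3 (-1.44 ± 0.28), which peaks opposite to Dbp, fell. Dbp was not called (0.74 ± 0.35), nor was Nr1d1, another clock repressor (log2 fold change -0.41). In all, 10 of 20 tested members were higher and 2 lower by the test, compared with 8 and 1 for the summed pair and 6 and 2 without control 2. The median was 0.74, with 0.50, 0.87 and 0.86 in the iron-loaded libraries. For Per1 and Ciart the controls spread widely while the iron-loaded mice were alike. Livers were collected over a window of more than 1 hour, the order of mice within it is not given in the sources used here, and the part of collection time in these values was not tested. Per1 and Nfil3 lost their calls without control 3 (1.98 and -1.31), Ciart without control 2 (2.83), and Npas2 without control 1 or 3 or iron-loaded 2 or 3 or with the summed pair (-2.96 to -2.00). Control 1 was the highest control for Ciart and Per1, whose log2 fold changes without it were 4.73 and 3.11, and without iron-loaded 1 that of Npas2 was -3.95.

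The E-box, searched as CACGTG, the same on both strands, was found upstream of 4 of the 8 matched genes among the 10 clock genes called higher, against 6.02% of all promoters and 6.86% of genes, and of 1 of 7 matched members that were not called. Ciart holds 3 copies and Per1 holds 1 in the 250 bases, and their stretches, Ciart at chr3:95882229-95882478 (minus strand) and Per1 at chr11:69098699-69098948 (plus strand), are shown with the E-boxes in capitals.
Ciart: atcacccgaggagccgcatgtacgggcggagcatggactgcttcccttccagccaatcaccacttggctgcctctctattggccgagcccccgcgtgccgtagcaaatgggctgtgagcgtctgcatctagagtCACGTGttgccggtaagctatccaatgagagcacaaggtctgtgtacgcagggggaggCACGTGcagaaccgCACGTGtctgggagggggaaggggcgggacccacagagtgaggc
Per1: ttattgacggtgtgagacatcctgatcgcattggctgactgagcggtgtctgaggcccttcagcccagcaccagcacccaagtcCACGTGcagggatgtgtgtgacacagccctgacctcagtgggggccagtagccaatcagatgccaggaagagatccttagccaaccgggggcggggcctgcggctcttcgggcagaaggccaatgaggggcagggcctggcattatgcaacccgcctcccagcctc

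Further large changes were seen in single genes. Tsku, a secreted leucine-rich protein, was at 13.4, 15.1 and 8.73 CPM in the controls and 555, 32.2 and 30.9 CPM with iron (4.05 ± 1.11), with mouse 1 far above mice 2 and 3. Serpina7, the thyroxine-binding globulin, stood at 10.2, 9.27 and 10.4 CPM in the controls and 208, 45.4 and 47.1 CPM with iron (3.33 ± 0.59), and Igdcc4, a membrane protein of the immunoglobulin superfamily, rose from 1.09, 0.880 and 0.541 CPM to 8.31, 14.3 and 13.3 CPM (3.80 ± 0.31). Car3, carbonic anhydrase 3, which fat and muscle also express, fell in all 3 iron-loaded mice relative to every control (-3.47 ± 0.58, edgeR adjusted p = 0.00923). Ntrk2, the receptor of brain-derived neurotrophic factor, fell from 49.0, 30.0 and 22.2 CPM to 0.469, 2.89 and 3.12 CPM (-3.97 ± 0.50), and Serpinb1a, an elastase inhibitor, from 11.6, 10.8 and 6.26 CPM to 0.536, 1.03 and 1.14 CPM (-3.41 ± 0.34). Tsku lost its call without control 1, 2 or 3 or under the replicate block (2.70 to 4.21) and Serpina7 without control 2 or 3 (3.28 to 3.36). DESeq2 gave no adjusted p for Tsku. Without iron-loaded 1 the log2 fold changes of Tsku and Serpina7 were 1.34 and 2.22.

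The same 6 RNAs were also read with 3'-LEXO, and the diet effects of both kits were compared over 12 libraries. With mouse as a block, which uses the pairing of the kits within each mouse, 5 genes differed between the kits at an edgeR adjusted p under 0.05. A model without the block leaves out this pairing. It called 0 of 14384 genes, with 402 (2.79%) at an unadjusted p under 0.05. In that model the log2 fold changes of Trad-KAPA and then 3'-LEXO were 6.09 and 5.20 for Asns, 2.43 and 2.02 for Bmp6, 4.68 and 4.42 for Mmp12 and 2.36 and 2.53 for Hamp. For Mup3 they were -5.80 and -4.71, and for Sqle 2.12 and 1.60. The libraries of both kits share their mice, so that these values are not independent of each other.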

How the data were processed

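Polyadenylated liver RNA of 3 control and 3 iron-loaded mice was read with the KAPA Stranded mRNA-Seq kit, and 3' libraries of the same RNAs were used only for the comparison between kits. The deposited table holds raw whole-number counts per gene and library that the authors made from reads aligned with STAR 2.5.3a to GRCm38 (mm10), per the submitters' processing notes. The counting program and annotation are not given in the sources used here. Genes carry Ensembl identifiers, and 26949 of 27022 matched GENCODE M21, from which symbols and positions were taken.

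Counts were tested with edgeR 4.0.16 in R 4.3.3 (limma 3.58.1), with filterByExpr, TMM scaling, the quasi-likelihood test on diet and Benjamini-Hochberg adjustment over 13151 genes at 0.05. DESeq2 1.42.0, DESeq2 size factors, no filter, a filter of 1 CPM in 3 libraries, counts drawn down to an equal depth, a replicate block, the summed pair and leaving out each library were alternatives. On simulated counts for 13151 genes of this comparison, of which 200 were changed, edgeR recovered 81% of 2-fold and 94% of 4-fold changes and DESeq2 73% and 93%. Every simulated gene had the same coefficient of variation of 0.15, whereas the real spread was uneven among genes and mice. These shares therefore do not give the power of this comparison. Lists and named genes were chosen with earlier results of these data known. Named genes are the 12 largest rises and falls, the 5 largest changes of mean CPM in each direction, up to 5 called members per list and direction, the 3 most abundant members of each list, and key iron genes, except a few that are not reported here. Shared sequence was counted over 50-base stretches of GENCODE transcripts, and promoters were searched over 250 bases. Python 3.11.15, numpy 2.4.6, pandas 2.3.3 and matplotlib 3.10.9 were used for summaries and plots. Library totals of 13834682 to 16553616 counts leave genes with few counts imprecise.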

Additional observations from a re-analysis of the deposited data

Results flagged for a closer look

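With mouse as a block over all 12 libraries, 5 genes had a diet effect that differed between the kits, and they were picked out for that difference after their values were seen. The differences and adjusted p-values below are from that fit, while the log2 fold changes of each kit are from the model without the block. The difference of log2 fold changes, 3'-LEXO minus Trad-KAPA, was 1.82 for Mup9 (-6.28 in Trad-KAPA and -4.44 in 3'-LEXO, edgeR adjusted p = 0.0431) and 1.09 for Mup3 (-5.80 and -4.71, edgeR adjusted p = 0.0294), major urinary proteins whose fall was smaller in the 3' libraries. For Slco1a1 it was 2.47 (-7.60 and -5.14, edgeR adjusted p = 0.0463). The rise of Abcc4 was smaller in the 3' libraries, with a difference of -1.39 (4.62 and 3.24, edgeR adjusted p = 0.0294), and that of Serpina1e, an alpha-1 antitrypsin gene, was larger, with a difference of 0.92 (0.86 and 1.77, edgeR adjusted p = 0.0294). The fits without the block, which leave out that each mouse was read with both kits, called 0 genes. Mup9 and Serpina1e share 79.1% and 34.6% of their 50-base stretches with other genes, and the part of shared reads in these differences was not tested.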

How the results depend on the processing

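The direction of every named called gene held in all alternatives that gave a value, and of 272 such genes 118 kept their calls in 13 of 13 alternatives, 180 with the summed pair and 140 without control 2. With the summed pair 625 genes were higher and 522 lower, where the construction leaves 5 libraries. Leaving out 1 library gave 414 (without control 2) to 1439 (without iron-loaded 1) genes higher and 427 to 1364 lower. The numbers of genes called higher with iron and of genes called lower with iron were 1240 and 1191 by DESeq2, 1156 and 1108 with DESeq2 size factors, 1530 and 1336 with no filter, 1167 and 1095 with the stricter filter, and 1076 and 974 at equal depth. With the replicate block 969 were higher and 953 lower. Deviations of control and iron-loaded libraries of the same number correlated at 0.019, 0.060 and -0.015 over 10323 genes. Libraries of different number correlated at -0.051 to 0.030. These values are all small and cannot decide whether the numbers pair the mice. The test of the kits called 5 genes in edgeR with mouse as a block. Without the block, which leaves out the pairing of the kits within each mouse, it called 0 genes of 14384, with 402 at an unadjusted p under 0.05. It also called 0 without any 1 mouse. The cause of the differences between kits was not tested. Genes at few counts, such as Slc7a11, Trem2 and Ugt2b37, are limited by depth.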
